A study of Saccharomyces cerevisiae with 6 samples.

Results

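The Snf1 kinase and its Mig repressors form the main switch by which budding yeast shuts off genes for other sugars while glucose is present. Their transcripts were measured in 3 groups of Saccharomyces cerevisiae of the W303-1a background, a common laboratory strain: wild type, a GPR1 deletion and a GPA2 deletion, with 2 arrays in each. GPR1 encodes the glucose-sensing receptor of the plasma membrane and GPA2 the G protein alpha subunit that acts with it towards protein kinase A, and the study's title asks how such a receptor system ties cell size to glucose. The members are 10 genes of known function: the kinase subunit genes SNF1, SNF4, SIP1, SIP2 and GAL83, the phosphatase genes GLC7, REG1 and REG2, and the repressor genes MIG1 and MIG2. All 10 were found, out of 5656 genes that at least 1 probe set names alone, and each was read through its brightest such probe set. The labels leave out the medium, the glucose level, the way the genes were deleted and whether each strain is 1 clone.

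In this pathway Snf1 is the catalytic subunit of the yeast AMP-activated kinase and Snf4 is its activating gamma subunit. One of 3 beta subunits, Sip1, Sip2 or Gal83, holds the complex together and sets where in the cell it acts. On glucose, the protein phosphatase Glc7, brought in by Reg1, keeps Snf1 dephosphorylated, and the zinc-finger repressor Mig1 stays in the nucleus on the promoters of glucose-repressed genes. When glucose runs out, active Snf1 phosphorylates Mig1, which leaves the nucleus. Mig2 is a related repressor with overlapping targets, and Reg2 is a Reg1 relative that also binds Glc7. Most of this control acts on the proteins, and the arrays read RNA only.

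The median deposited intensity ran from 225.1 to 562.9 over the 6 arrays, so the arrays were quantile normalised, and the values below are normalised log2 intensities unless called deposited. Each deleted gene was near background in its own strain. In the gpr1 deletion the deposited GPR1 intensity was 5.1 and 2.8, where the other 4 arrays had 490.7 or more. In the gpa2 deletion that of GPA2 was 9.3 and 10.9, where the other 4 had 1029.2 or more. W303-1a is known as a strain of mating type a, and of its 6 marker genes STE6 was lowest, with a deposited intensity of 495.7 or more on every array. Of the 4 alpha-cell markers STE3, MF(ALPHA)1 and MF(ALPHA)2 had deposited intensities of at most 167.6, while SAG1 had 251.5 to 691.1. Signs of RNA quality differed between arrays. The SPT15 control, read near both ends of its transcript, had a 3'/5' ratio between 3.16 and 4.83 on 5 arrays, and 10.3 on wild-type array 2. The same ratio of actin (ACT1) was 1.26 and 1.29 in wild type, 1.35 and 1.53 in the gpr1 deletion, and 1.54 and 1.53 in the gpa2 deletion, so it moved with the groups, and its part in the results was not tested. Gpa2 array 2 is labelled as a second experiment, and no label says whether the arrays of a group come from separate cultures. The p-values here reflect the spread among these arrays alone, which may be technical.

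None of the members changed past the threshold in any comparison. Against wild type, 0 of 9 tested members passed in the gpr1 deletion (limma adjusted p from 0.902 to 0.999), where 0.23% of all 6956 probe sets tested did (0.0863% higher and 0.144% lower). In the gpa2 deletion 0 of 9 passed as well (adjusted p from 0.627 to 0.939), against 0.776% of all probe sets (0.474% higher and 0.302% lower). Between the deletions 0 of 9 passed (adjusted p = 0.99969 for each), against 0.0288% (0.0144% in each direction). At an unadjusted limma p under 0.05 the count was also 0 of 9 in each of the 3 comparisons. Of all 6956 probe sets tested, 462, 796 and 163 lay under it, so 0 of 9 does not set the members apart. At the brightest probe set of each, the fitted changes of the 9 were 1.43-fold or less in the gpr1 deletion, 1.34-fold or less in the gpa2 deletion and 1.25-fold or less between the deletions. With 2 arrays a group such a miss does not show equal levels, so the 95% intervals are given for the main members. REG2, the tenth member, was left out of the test because it was too dim. The directions were not firm: 19 of 27 tested member changes turned sign when 1 array was left out in turn. Median centring in place of quantile normalisation turned only SNF4 for gpr1. On the deposited values, not brought to a common level, the median change of all probe sets was itself -0.32 for gpr1, -1.02 for gpa2 and -0.70 between the deletions. A sign on those values carries this shift too. On that scale 9 member values turned sign (SNF4, SIP2 and MIG1 for gpr1; SIP2, MIG1 and MIG2 for gpa2; SIP2, REG2 and MIG1 between the deletions), and again none passed, with adjusted p of 0.104 or more.

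**Figure D1:**
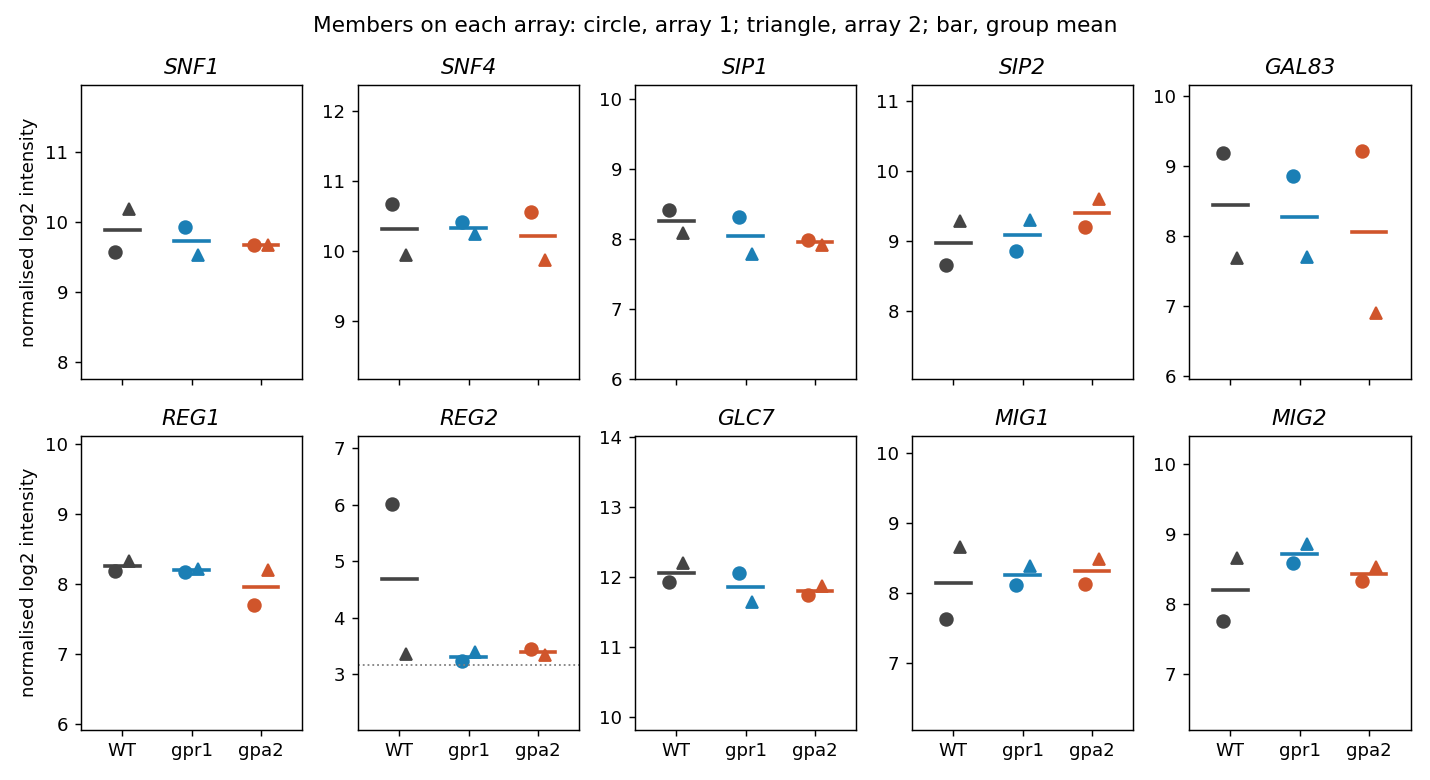
Normalised log2 intensity of the 10 members on each array (vertical axes, each panel with its own scale) in wild type (WT) and the gpr1 and gpa2 deletions; circles are array 1, triangles array 2, bars the mean of 2 arrays, and the dotted line for REG2 is the floor of the scale. The 2 arrays of a group often lay farther apart than the group means, most of all for GAL83, where array 2 lay below array 1 in each group.

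SNF1, the catalytic subunit (locus YDR477W, chromosome IV), read 9.57 and 10.18 on arrays 1 and 2 of wild type, 9.92 and 9.53 in the gpr1 deletion, and 9.67 and 9.66 in the gpa2 deletion, an order of arrays kept below. The highest reading was wild-type array 2 and the lowest gpr1 array 2, and all 3 groups overlapped. The log2 change was -0.15 ± 0.27 (SE, n = 2 arrays per group) in the gpr1 deletion, with a 95% interval of -0.77 to 0.47, and -0.21 ± 0.27 in the gpa2 deletion, with an interval of -0.83 to 0.41. The intervals of SNF1 thus reach down to 1.71-fold lower for gpr1 and 1.78-fold lower for gpa2.

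SNF4, the gamma subunit (YGL115W, chromosome VII), read 10.68 and 9.95 in wild type, 10.41 and 10.24 in the gpr1 deletion, and 10.57 and 9.87 in the gpa2 deletion. Its group means were the closest of the tested members, within 0.11 of each other on the log2 scale. The log2 change was 0.01 ± 0.32 in the gpr1 deletion (-0.01 with median centring) and -0.10 ± 0.32 in the gpa2 deletion.

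The beta subunits did not share one order of groups. SIP1 (YDR422C), whose product is known for a vacuolar place in the cell, read 8.42 and 8.08 in wild type, 8.30 and 7.78 in the gpr1 deletion, and 7.98 and 7.91 in the gpa2 deletion. Both gpa2 arrays lay below both wild-type arrays, at a log2 change of -0.30 ± 0.30 with a 95% interval of -0.99 to 0.39. SIP2 (YGL208W), the mainly cytoplasmic beta subunit, read 8.65 and 9.28 in wild type, 8.85 and 9.30 in the gpr1 deletion, and 9.19 and 9.60 in the gpa2 deletion. Its mean was highest in the gpa2 deletion, 0.43 ± 0.31 above wild type (interval -0.27 to 1.12; limma adjusted p = 0.627), and the groups overlapped because wild-type array 2 lay above gpa2 array 1. Comparing only arrays with the same number, SIP2 was 0.54 and 0.32 higher in the gpa2 deletion than in wild type. Without wild-type array 1 the change was 0.11, and without wild-type array 2 it was 0.74.

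GAL83 (YER027C, chromosome V), the beta subunit known to carry the kinase into the nucleus, showed the widest spread of the tested members, and the spread followed the array number and not the strain. It read 9.19 and 7.68 in wild type, 8.85 and 7.70 in the gpr1 deletion, and 9.21 and 6.90 in the gpa2 deletion. Every array 1 lay above every array 2. The gap between the arrays of a group was 1.51, 1.16 and 2.31 on the log2 scale, a mean of 3.15-fold, while the 3 group means lay within 0.38 of each other. Only 11 of the 6956 tested probe sets (0.158%) had array 1 above array 2 by at least as much as GAL83's smallest gap in all 3 groups. The gap was seen in the deposited intensities too, with 890.2 and 198.3 in wild type, 670.9 and 148.8 in the gpr1 deletion, and 357.5 and 74.7 in the gpa2 deletion. The label of gpa2 array 2 calls it a second experiment, and no label says what the number stands for in the other groups.

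Against this spread the log2 change of GAL83 was -0.16 ± 0.77 for gpr1 and -0.38 ± 0.77 for gpa2, with 95% intervals from -1.91 to 1.59 and from -2.13 to 1.37. Within array number 1 the changes were -0.34 and 0.02, and within number 2 they were 0.02 and -0.78. With the number as a block the standard error was 0.31 and the adjusted p 0.891 and 0.543, so no call was gained. Leaving out 1 array turned the sign in both comparisons: without wild-type array 1 the changes were 0.59 and 0.37. GAL83 is annotated on 1 probe set alone, so no second reading of it was at hand. In the R64 assembly its neighbours are CHO1 and the repressor gene MIG3. CHO1 had gaps of 0.76, 0.46 and 0.66 in the same direction, and MIG3 lay at the floor on all 6 arrays.

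**Figure D2:**
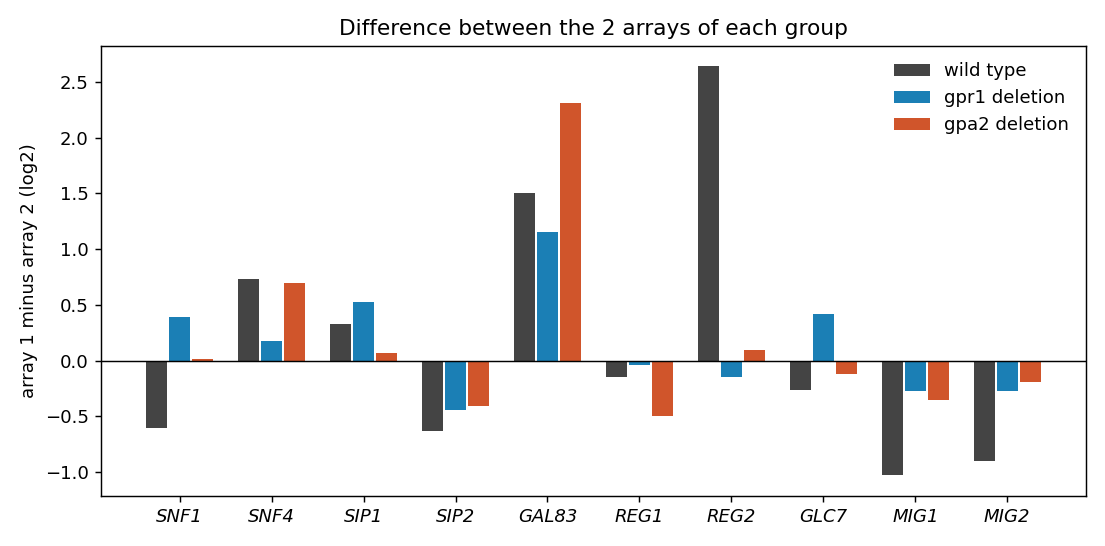
Difference between array 1 and array 2 of each group (vertical axis, log2) for the 10 members; bars are wild type (grey), gpr1 deletion (blue) and gpa2 deletion (orange), each from 1 pair of arrays. GAL83 has the longest bars in a shared direction, at 1.51, 1.16 and 2.31, and the long REG2 bar is wild type alone.

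The array number also went with other members, less far. Among the 9 tested, 3 (SNF4, SIP1 and GAL83) were higher on array 1 in all 3 groups and 4 (SIP2, REG1, MIG1 and MIG2) were lower. That is 7 of 9 with a shared direction, where 46% of all tested probe sets had one. For SIP2 the gaps were -0.63, -0.45 and -0.41, each about as large as its difference between gpa2 deletion and wild type.

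The phosphatase catalytic subunit gene GLC7 (YER133W) has 2 probe sets. The brighter read 11.93 and 12.20 in wild type, 12.06 and 11.64 in the gpr1 deletion, and 11.75 and 11.87 in the gpa2 deletion. Both gpa2 arrays were below both wild-type arrays, at a log2 change of -0.26 ± 0.22 and a 95% interval of -0.77 to 0.25. The dimmer gave 9.69 and 9.96, then 9.81 and 9.08, then 9.33 and 9.44 in the same order, with a change of -0.44 ± 0.29 in the gpa2 deletion. The 2 probe sets thus gave the same sign against wild type, and neither passed (adjusted p = 0.703 and 0.588). With SIP1, GLC7 made 2 of 9 tested members that lay wholly below wild type in the gpa2 deletion, close to the 20.8% of all probe sets that did so. None lay wholly above (0 of 9, against 19% of all probe sets), and in the gpr1 deletion none lay wholly above or below (16.1% and 16.3% of all probe sets).

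REG1 (YDR028C), which brings Glc7 to Snf1, read 8.19 and 8.33 in wild type, 8.17 and 8.21 in the gpr1 deletion, and 7.70 and 8.20 in the gpa2 deletion. Wild type and the gpr1 deletion were almost level, with a log2 change of -0.07 ± 0.29 (95% interval -0.73 to 0.59). The gpa2 mean lay 0.31 ± 0.29 lower than wild type through its array 1 (change -0.31; interval -0.97 to 0.35).

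REG2 (YBR050C) was dim. It had deposited intensities of 110.5 and 8.5 in wild type, 12.2 and 7.8 in the gpr1 deletion, and 7.3 and 5.6 in the gpa2 deletion. Wild-type array 1 stood alone, at a normalised 6.01 where the other 5 arrays read 3.24 to 3.45, just above the floor of 3.16. The difference of means was -1.37 for gpr1 and -1.29 for gpa2, and without wild-type array 1 it was -0.05 and 0.03. When dim probe sets were kept in, limma gave adjusted p of 0.871 and 0.684. No fold is given, since 5 arrays lie near background.

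MIG1 (YGL035C), the main glucose repressor, read 7.63 and 8.66 in wild type, 8.12 and 8.39 in the gpr1 deletion, and 8.13 and 8.49 in the gpa2 deletion. All 4 mutant arrays lay between the 2 wild-type arrays, which differed by 1.03. The log2 change was 0.10 ± 0.37 for gpr1 and 0.16 ± 0.37 for gpa2, with 95% intervals of -0.74 to 0.95 and -0.69 to 1.01. MIG1 was -0.41 and -0.35 against wild type without wild-type array 1.

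MIG2 (YGL209W), the second repressor, read 7.75 and 8.65 in wild type, 8.57 and 8.85 in the gpr1 deletion, and 8.33 and 8.52 in the gpa2 deletion. It had the largest fitted change of the tested members, 0.51 ± 0.34 in the gpr1 deletion (1.43-fold; interval -0.26 to 1.28; limma adjusted p = 0.902). That value rested on the wild-type arrays: it was 0.06 without wild-type array 1 and 0.96 without array 2. Both gpa2 arrays lay below both gpr1 arrays, at a difference of -0.29 ± 0.34. That makes 1 of 9 members wholly lower between the deletions, where 15% of all probe sets were, and 0 of 9 wholly higher, where 15.9% were. MIG2 and SIP2 are neighbours on chromosome VII in the R64 assembly, and both were higher on array 2 than on array 1 in every group, as 25.8% of all tested probe sets were. Their other neighbours were not. YPT32, next to MIG2, was higher on array 1 by 1.02, 0.67 and 1.21, and SPT16, next to SIP2, had gaps of -0.49, 0.01 and -0.32. On wild-type array 2, which had the high SPT15 ratio, SNF1, SIP2, MIG1 and MIG2 were 0.61 to 1.03 higher than on wild-type array 1, and GLC7 and REG1 0.27 and 0.14 higher. The other members were lower there, SIP1 by 0.33, SNF4 by 0.73, GAL83 by 1.51 and REG2 by 2.64, and the part of RNA quality in this was not tested.

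**Figure D3:**
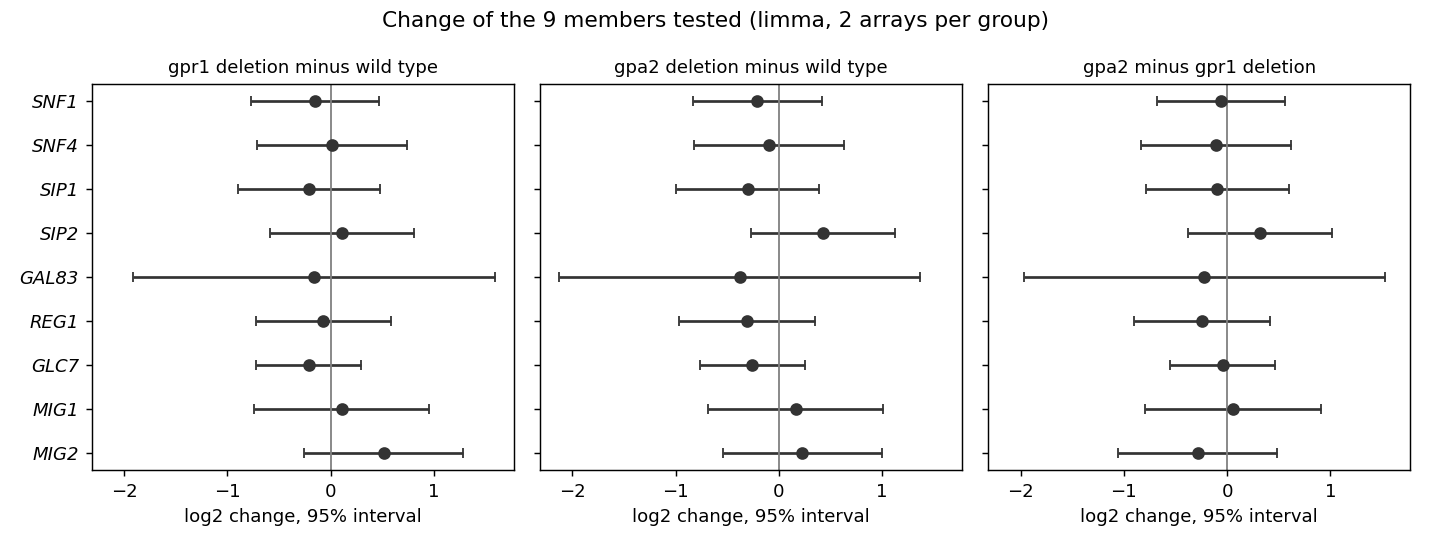
Log2 change of the 9 tested members (1 line each) in the 3 comparisons, with the limma estimate as a point and its 95% interval as a bar, from 2 arrays per group. Every interval spans 0, and GAL83's is the widest, from -1.91 to 1.59 in the gpr1 deletion.

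Across the 9 tested members, 5 (SNF1, SIP1, GAL83, REG1 and GLC7) had group means in the order wild type, gpr1 deletion, gpa2 deletion from high to low, and 2 (SIP2 and MIG1) had the opposite order. Of all tested probe sets 25.2% and 23% had these orders. Neighbours in each order did not differ past the test. The actin 3'/5' ratio was on average lowest in wild type and highest in the gpa2 deletion. The SPT15 and YER022w ratios did not rise that way, SPT15 with its 10.3 on wild-type array 2. YER022w had 2.13 and 1.68 in wild type, 2.36 and 2.05 in gpr1, and 2.06 and 2.04 in gpa2. The part of RNA quality in the order of the group means was not tested. The median log2 change of the 9 was -0.07 for gpr1 and -0.21 for gpa2, where the median over all tested probe sets was -0.0007 and -0.02. The 2 comparisons share the wild-type arrays. Apart from GAL83, and at the brightest probe sets, the widest 95% interval against wild type reached 1.99-fold lower (SIP1 in the gpa2 deletion) and 2.43-fold higher (MIG2 in the gpr1 deletion). The dimmer GLC7 probe set reached 2.13-fold lower in the gpa2 deletion.

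The genes whose profiles over the 6 arrays were most like those of SNF1 and MIG1 were found by the root mean square difference of mean-centred log2 values, over 5649 other probe sets that name 1 gene. For SNF1 these were CNA1, ESL1 and POP4, at 0.05, 0.06 and 0.07, where the median over all was 0.33. For MIG1 they were THI7, YCH1 and IST2, at 0.04, 0.07 and 0.07, with a median of 0.39. As the smallest distances of all, these had to lie under the medians, and they take in gaps between the arrays of a group. REG2, whose group means spanned the widest range, had no close match, with SNR76, CPP3 and YOL014W at 0.47, 0.53 and 0.54 and a median of 1.04 over 5650 probe sets. Its range and its profile rest on wild-type array 1 alone, since all the other arrays lay near the floor.

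The rest of the pathway was read from 6 lists. Of their tested genes none passed the threshold in any comparison, though 4 passed under some alternatives, given beside them; the fitted log2 changes against wild type ran from -1.28 for TOS3 to 1.64 for HXK1, both in the gpa2 deletion. Among the 8 tested of 13 genes known for repression through Mig1 or Mig2, 0 passed in either direction in either deletion. Of all probe sets tested 0.23% passed for gpr1 and 0.776% for gpa2. At those shares 0 calls in a list this short, here and below, say little about the list. The median log2 change of the 8 was -0.27 in both deletions, where that of all tested probe sets was -0.0007 and -0.02. Of the 8, 2 were positive and 6 negative in each deletion, where 49.9% and 47.9% of all were positive. HXK1, the hexokinase isoform known to be repressed on glucose, went the other way. It read 10.77 and 11.42 in wild type, 11.88 and 12.40 in the gpr1 deletion, and 12.50 and 12.97 in the gpa2 deletion. The 3 groups thus lay one above the other without overlap. Of all tested probe sets 16.1% lay wholly higher in gpr1, 19% in gpa2 and 15.9% between the deletions. On deposited values HXK1 overlapped between the deletions, at 5236.5 and 3968.5 for gpr1 and 3490.8 and 5575.1 for gpa2. Its log2 change was 1.04 ± 0.29 for gpr1 (limma adjusted p = 0.399; 0.0446 with the array number as a block) and 1.64 ± 0.29 for gpa2 (adjusted p = 0.0519). Over 15 alternatives the adjusted p for gpa2 ranged from 0.00519, with the block, to 0.334, and 5 were past the threshold.

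Other genes of that list lay lower. HXT2, a high-affinity hexose transporter gene, was at -0.94 in the gpa2 deletion (adjusted p = 0.302; 0.00773 on deposited values, 0.047 without wild-type array 1, and up to 0.796 over 15 alternatives) and -0.29 in the gpr1 deletion. On those deposited values the median change of all probe sets was itself -1.02 for gpa2. SUC2, the invertase gene that is the classic target of Mig1, read 8.98 and 9.85 in wild type, 8.99 and 8.74 in the gpr1 deletion, and 8.63 and 8.89 in the gpa2 deletion. Its change in the gpa2 deletion was -0.65 (adjusted p = 0.485). GAL3, the galactose sensor gene, was at -1.08 there (adjusted p = 0.486).

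Repressors and their partners had a median of -0.18 for gpr1 and -0.30 for gpa2, with 0 of 6 tested (of 7 listed) past the threshold. NRG2 and NRG1 encode related zinc-finger repressors that take part in glucose repression. NRG2 read 10.34 and 10.11 in wild type, 9.63 and 9.29 in the gpr1 deletion, and 9.10 and 9.06 in the gpa2 deletion. Each group lay wholly below the one before. NRG2 was thus wholly lower in gpr1, in gpa2 and between the deletions, where 16.3%, 20.8% and 15% of all probe sets were. Its log2 change was -0.77 for gpr1 (limma adjusted p = 0.46) and -1.14 for gpa2 (adjusted p = 0.0817; 0.0322 with the array number as a block, and 0.0279 to 0.383 over 15 alternatives). The low end of that range came from deposited values, where the median change of all probe sets was itself -1.02 for gpa2. NRG1 was at -0.83 and -0.71 (adjusted p = 0.689 and 0.443), with all mutant arrays below both wild-type arrays. HXK2, the main hexokinase of glucose-grown cells and a partner of Mig1, was at -0.36 in the gpa2 deletion (adjusted p = 0.539), and TUP1, the corepressor gene, at -0.34 between the deletions (adjusted p = 0.99969).

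Of the 3 kinases that activate Snf1, TOS3 had the smallest p. It read 9.64 and 8.77 in wild type, 8.57 and 8.10 in the gpr1 deletion, and 8.36 and 7.48 in the gpa2 deletion. Its log2 change was -0.87 and -1.28 (adjusted p = 0.779 and 0.28; for gpa2 0.041 with the array number as a block, and 0.0215 to 0.688 over 14 alternatives). SAK1, the main activating kinase, was at -0.17 in the gpa2 deletion, and ELM1 at 0.36 in the gpr1 deletion. Of the 3, 0 passed. The low end of the range for TOS3 came from deposited values, where the median change of all probe sets was itself -1.02 for gpa2.

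Among activators that work after Snf1, 4 of 6 were tested and 0 passed. ADR1, which drives genes of ethanol and fatty acid use, was at 1.09 for gpr1 and 0.97 for gpa2 (adjusted p = 0.708 and 0.461). RDS2 and HAP4 were at 0.58 and -0.27 in the gpa2 deletion, and ERT1 at 0.29 between the deletions. On deposited values, where the median change of all probe sets was itself -1.02 for gpa2, ADR1 and RDS2 were at -0.00904 and -0.38 in that deletion. CAT8 and SIP4 were too dim to test. Of 17 targets of Cat8 or Adr1, 11 were tested and 0 passed, with medians of 0.22 for gpr1 and 0.35 for gpa2 (7 and 9 positive). Over all tested probe sets the medians were -0.0007 and -0.02, and 49.9% and 47.9% were positive. Whether the list differs from these was not tested. MDH2, cytosolic malate dehydrogenase, had the smallest p of them, at 0.95 and 0.75 (adjusted p = 0.448 and 0.36). IDP2 and POT1 were both at 0.91 in the gpa2 deletion, and ACS1 was at 0.38 in the gpr1 deletion. On deposited values, with the same shifted median, MDH2, IDP2 and POT1 for gpa2 were at -0.28, -0.062 and -0.046. The 11 tested of 13 other partners of Glc7 had medians of 0.07 and 0.22 and 0 calls, with GIP3 at 0.55 in the gpr1 deletion and PIG1 at 0.60, SHP1 at 0.34 and BUD14 at -0.45 in the gpa2 deletion.

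**Figure D4:**
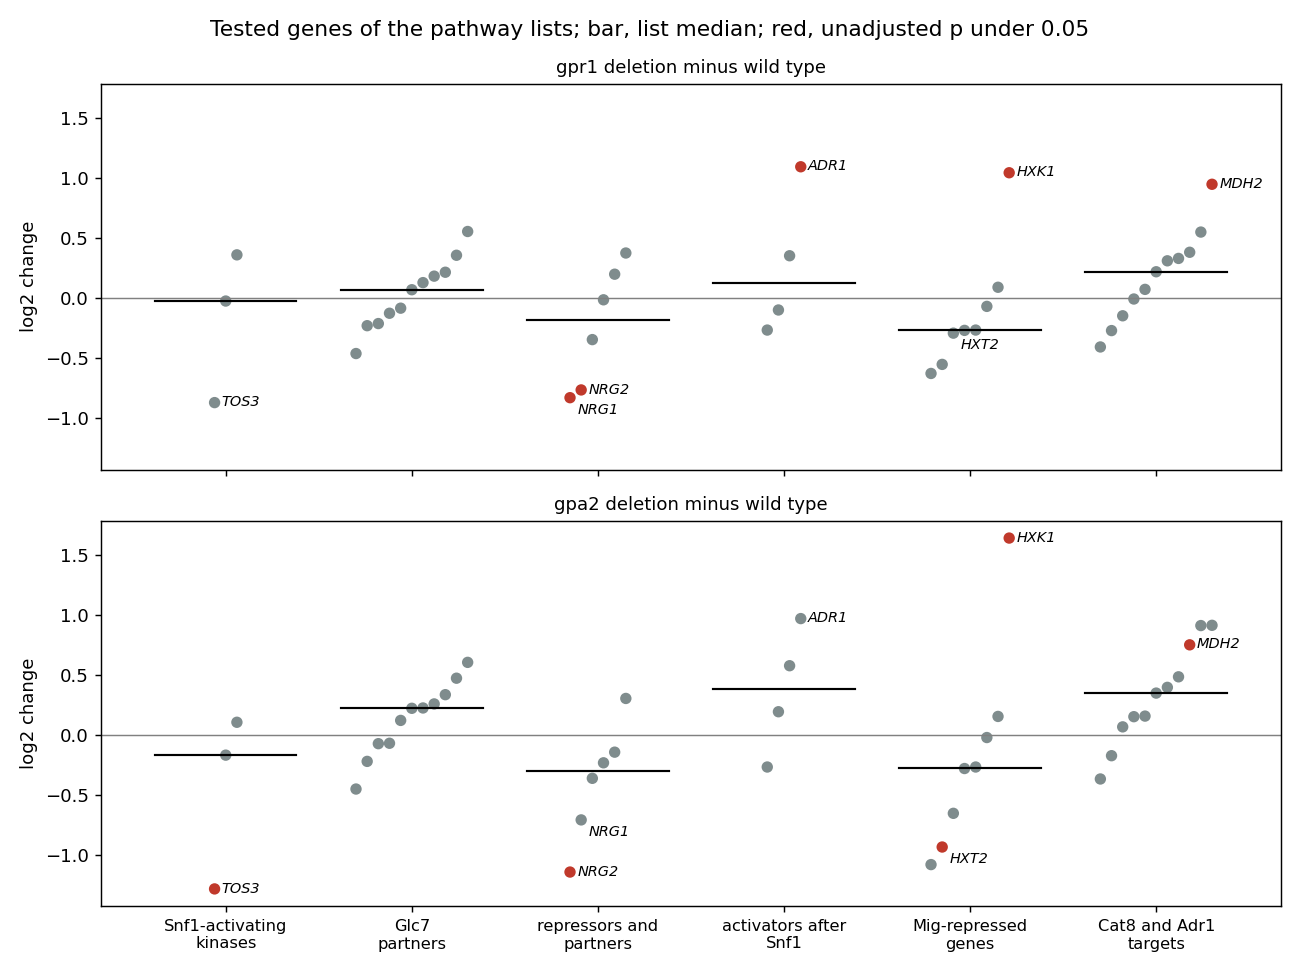
Log2 change (vertical axis) of every tested gene of the 6 pathway lists in the gpr1 deletion (top) and the gpa2 deletion (bottom) against wild type; points are genes, bars list medians, red an unadjusted p under 0.05. HXK1 stands highest in the gpa2 deletion at 1.64 and TOS3 lowest at -1.28, and no point passed the adjusted threshold.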

How the data were processed

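Per the labels, total RNA of 6 yeast samples was hybridised to single-colour arrays, and the authors deposited 1 linear intensity per probe set. No label or header names their summary method or scaling. Every column matched 1 sample by accession. Arrays were quantile normalised, 60 control probe sets of 9335 were removed, values were raised to a floor at the pooled 10th percentile (log2 3.16), and log2 was taken. Of 9275 probe sets, 2319 with a mean under the 25th percentile were left out, which left 6956. Genes came from the platform annotation, matched by gene identifier to R64 for all 6504 probe sets that name 1 gene. The test was limma 3.58.1 (R 4.3.3) over all 6 arrays (3 residual and 5.52 prior degrees of freedom, trend, Benjamini-Hochberg at 0.05). On simulated data the procedure missed a recovery limit with 1 choice of spread, and met it with another taken after the miss. Same-numbered arrays deviated together from their group means (correlations 0.203 to 0.404), though no label says that a number is shared; fits with the number as a block are given where they change a call. The number of arrays limits the precision. The members and lists were chosen with earlier results of these data known. Named genes are the members, the deleted genes, up to 4 of each list by smallest p, and the 3 most alike in profile. CHO1, MIG3, YPT32 and SPT16 were named as neighbours after values were seen.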

Additional observations from a re-analysis of the deposited data

How the results depend on the processing

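No member change passed the threshold under any of the alternatives run, with limma adjusted p of 0.104 (GLC7 for gpa2, on deposited values) or more where a p was given. Of 426 member values under alternatives 41 turned sign, 31 of them with 1 array left out, 9 on deposited values and 1 otherwise, SNF4 for gpr1 at -0.0097 with median centring. Many alternatives, such as the block, alter the spread and not the change, so they could not turn a sign. Of the 27 changes of tested members, 19 turned sign with 1 array left out and 21 in any alternative. The deposited values, a floor of 1 and a filter at the 50th percentile were added after seeing the data; they had been left out of the first plan with earlier results of these data known. On deposited values, where the median of all probe sets was itself shifted, the log2 changes that turned sign were -0.31 (SNF4), -0.19 (SIP2) and -0.22 (MIG1) for gpr1, -0.59 (SIP2), -0.86 (MIG1), -0.79 (MIG2), -0.36 (PIG1), -0.73 (SHP1), -0.00904 (ADR1), -0.38 (RDS2), -0.28 (MDH2), -0.062 (IDP2) and -0.046 (POT1) for gpa2, and -0.40 (SIP2), -0.32 (REG2), -0.64 (MIG1) and -0.39 (ERT1) between the deletions. TOS3, NRG2 and HXT2 for gpa2 passed there (adjusted p = 0.0215, 0.0279 and 0.00773). REG2 differed by 0 in all 3 comparisons with the floor at the 25th percentile, where its readings lay at the floor. Leaving out 1 array in turn gave log2 changes on both sides of 0 for the following genes, and the cause was not tested. For the gpr1 deletion against wild type these were SNF1 from -0.46 to 0.15, SNF4 from -0.35 to 0.38, SIP1 from -0.47 to 0.055, SIP2 from -0.21 to 0.42, GAL83 from -0.91 to 0.59, REG1 from -0.14 to 0.0026, MIG1 from -0.41 to 0.62 and HXT2 from -0.67 to 0.083. For the gpa2 deletion against wild type these were SNF1 from -0.51 to 0.10, SNF4 from -0.46 to 0.27, GAL83 from -1.53 to 0.77, REG2 (untested) from -2.61 to 0.031, MIG1 from -0.35 to 0.68, MIG2 from -0.22 to 0.68, SAK1 from -0.75 to 0.41 and RDS2 from -0.15 to 1.31. For the gpa2 against gpr1 deletion these were SNF1 from -0.25 to 0.14, SNF4 from -0.46 to 0.24, SIP1 from -0.36 to 0.17, GAL83 from -1.37 to 0.93, REG1 from -0.49 to 0.0103, GLC7 from -0.25 to 0.16 and MIG1 from -0.12 to 0.24. Over all probe sets, the counts past the threshold were 16 for gpr1, 54 for gpa2 and 2 between the deletions. With the array number as a replicate block they were 33, 123 and 2. The block brought HXK1 past the threshold in both deletions (adjusted p = 0.0446 for gpr1 and 0.00519 for gpa2), and NRG2 (0.0322) and TOS3 (0.041) for gpa2, and changed no call of the other genes given. HXK1 for gpa2 also passed with the higher floor (0.0428), with the stricter filter (0.0454), and without wild-type array 1 (0.0475) or array 2 (0.0154), and HXT2 for gpa2 without wild-type array 1 (0.047). Without a trend the counts were 6, 26 and 2, with only the 2 groups compared 8, 27 and 3, with no filter 13, 15 and 5, on deposited values 24, 126 and 10, with a floor of 1 15, 53 and 2, and with the filter at the 50th percentile 10, 45 and 0 (limma; 85 between the deletions at an unadjusted p under 0.05). Leaving out 1 array in turn they ran from 5 to 53, from 7 to 179 and from 2 to 5, the highest for gpr1 and gpa2 without wild-type array 1. The alternatives for the pathway genes and the comparison of GAL83 by array number were chosen after seeing the data.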
